A study of Homo sapiens with 9 samples.

Results

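A set of 10 genes best known from neurons was followed in HEK293T cells transfected with protamine constructs: CKB, NEFL, NEFM, NEFH, INA, ENO2, STMN1, STMN2, UCHL1 and GAP43. They were chosen by name, as neuronal genes known to be expressed in HEK293T cells, and with earlier results of these data known. Their presence in the empty vector cells was thus part of the choice. All 10 are among the 57338 genes of the deposited table. HEK293T is a human embryonic kidney cell line, and its cells carried a plasmid for EGFP alone (empty vector), for EGFP fused to hPRM1, or for EGFP fused to hPRM2, under a transfection that ended 3 days later with a sort for live cells of high EGFP signal. Protamines are the small basic proteins that replace histones in sperm, and the study asked what they do to transcription in somatic cells. RNA was measured in 3 libraries per group, for 9 in all, with a kit that captures the 3′ ends of polyadenylated transcripts. Nothing in the labels says that the libraries of a group came from separate cultures, so p-values measure the spread between these libraries only.

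HEK293T cells are known to carry transcripts of several neuronal genes. Intermediate filament proteins assemble into the axonal cytoskeleton: NEFL, NEFM and NEFH are the light, medium and heavy neurofilament chains, and INA is the internexin that co-assembles with them. The other members serve energy supply (the brain-type creatine kinase CKB and the neuronal enolase ENO2), microtubule dynamics (the stathmins STMN1 and STMN2), ubiquitin turnover (the hydrolase UCHL1) and the growth cone (GAP43). STMN1 and CKB are also made by many dividing or energy-demanding cells outside the nervous system.

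The libraries labelled hPRM1 went against their label and stood apart from the other 6. PRM1 was listed at 0 RPKM (a read count scaled to library total and gene length) in all 9 libraries, those labelled hPRM1 included, whereas PRM2 was at 55802 ± 17929 RPKM (SD, n = 3) in the hPRM2 libraries and at 0 in the other 6. The 12 erythroid genes summed to 2060770 to 2267130 RPKM in the libraries labelled hPRM1, against 42.3 to 73.2 RPKM with the empty vector and 2.16 to 36.8 RPKM with hPRM2. Genes of neutrophils and monocytes summed to 6611 to 7681 RPKM there, against at most 3.02 and 20.8 RPKM, and all 12 of them exceeded 1 RPKM. Lymphocyte and platelet genes summed to 952 to 1289 and to 344 to 603 RPKM there. Of 14 genes that mark HEK293T cells, all 14 exceeded 1 RPKM in every empty vector library, 10 to 12 did so with hPRM2, and only 1 (VIM) did so in the libraries labelled hPRM1. The library names of that group also belong to another run of numbers, so group and library series cannot be told apart. In bulk RNA, fewer cells of a type and less RNA per cell cannot be told apart either. The reads on genes, estimated from the steps between low values, were 7870000 to 10700000 with the empty vector, 4180000 to 5830000 in the libraries labelled hPRM1 and 1270000 to 2660000 with hPRM2, where the counting error was largest. One read on a transcript of 2000 bases was worth 0.0535 to 0.0726 RPKM with the empty vector but 0.215 to 0.450 RPKM with hPRM2. Replicate 1 of hPRM2 stood apart within its group, with 9652 genes above 0 against 14353 and 15633, and with r = 0.67 and 0.70 to the others across genes, which are not independent replicates.

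**Figure D1:**
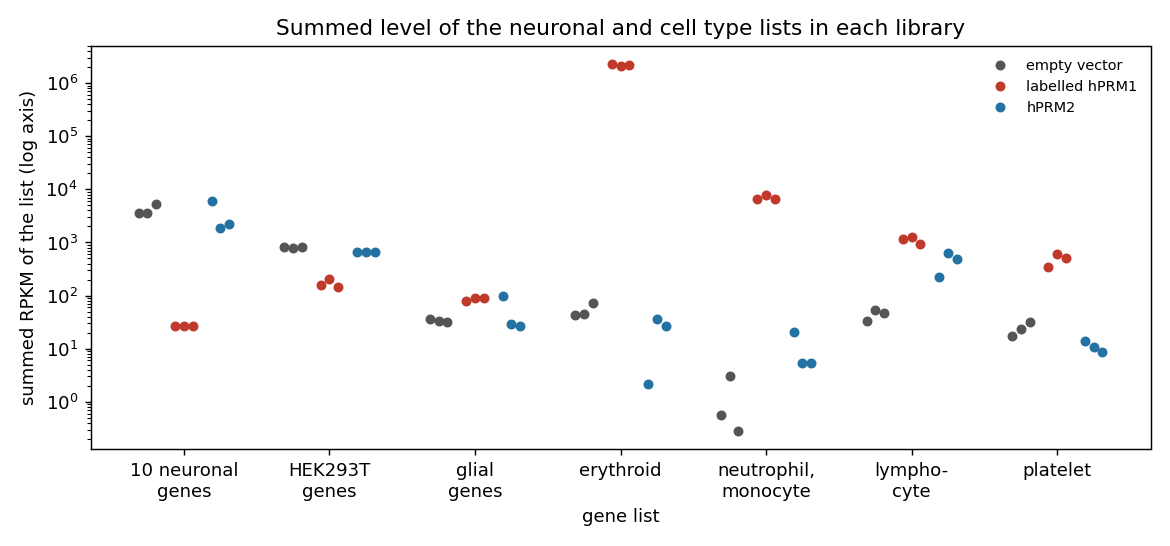
Summed RPKM (log axis) of the 10 neuronal genes and of 6 lists of cell type genes, with 1 point per library, coloured by group. The libraries labelled hPRM1 are lowest for the neuronal and HEK293T lists and highest for the erythroid, neutrophil and monocyte, lymphocyte and platelet lists.

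The promoters of the members that most results turn on are shown first. RefSeq (GRCh38.p14) gave a window for 6 of the 10 members, and no window was given for NEFL, NEFM, NEFH and STMN2. Those printed belong to the 4 highest-expressed members with a window, all far lower in the libraries labelled hPRM1, and to ENO2, which was not called there. Each runs 5′ to 3′ on the strand of the gene, from 250 bases before to 50 bases after the annotated start. Capitals mark 4 motifs searched on both strands, with overlaps between them allowed. They are the TATA box, with the letters TATAAA, the promoter element CCAAT, the GC box, with the letters GGGCGG, and a partial match to the RE1 element, with the letters GGACAGC. The RE1 element is the site that REST, a repressor of neuronal genes in other tissues, binds.
CKB: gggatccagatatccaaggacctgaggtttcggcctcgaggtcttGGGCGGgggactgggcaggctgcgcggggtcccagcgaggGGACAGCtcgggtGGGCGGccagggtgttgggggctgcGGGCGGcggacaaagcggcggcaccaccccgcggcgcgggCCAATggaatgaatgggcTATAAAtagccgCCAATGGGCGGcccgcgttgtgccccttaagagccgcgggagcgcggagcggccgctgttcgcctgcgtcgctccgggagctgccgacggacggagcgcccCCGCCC
STMN1: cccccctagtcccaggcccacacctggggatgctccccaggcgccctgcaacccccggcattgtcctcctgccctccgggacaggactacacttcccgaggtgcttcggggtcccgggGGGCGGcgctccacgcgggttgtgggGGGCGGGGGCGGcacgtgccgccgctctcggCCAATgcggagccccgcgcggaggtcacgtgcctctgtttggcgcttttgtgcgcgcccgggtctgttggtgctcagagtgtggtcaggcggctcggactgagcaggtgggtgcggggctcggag
UCHL1: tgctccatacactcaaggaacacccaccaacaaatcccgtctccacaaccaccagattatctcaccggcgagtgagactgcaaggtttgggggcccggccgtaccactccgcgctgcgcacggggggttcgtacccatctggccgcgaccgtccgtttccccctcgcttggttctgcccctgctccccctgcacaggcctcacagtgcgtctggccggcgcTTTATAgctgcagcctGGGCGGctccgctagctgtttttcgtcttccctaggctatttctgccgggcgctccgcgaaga
INA: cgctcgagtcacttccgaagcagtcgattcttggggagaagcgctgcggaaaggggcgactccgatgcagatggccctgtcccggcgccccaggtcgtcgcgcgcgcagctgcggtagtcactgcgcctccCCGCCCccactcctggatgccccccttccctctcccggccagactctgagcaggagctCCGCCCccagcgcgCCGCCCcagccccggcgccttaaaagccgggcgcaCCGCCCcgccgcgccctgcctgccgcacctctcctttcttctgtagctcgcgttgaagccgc
ENO2: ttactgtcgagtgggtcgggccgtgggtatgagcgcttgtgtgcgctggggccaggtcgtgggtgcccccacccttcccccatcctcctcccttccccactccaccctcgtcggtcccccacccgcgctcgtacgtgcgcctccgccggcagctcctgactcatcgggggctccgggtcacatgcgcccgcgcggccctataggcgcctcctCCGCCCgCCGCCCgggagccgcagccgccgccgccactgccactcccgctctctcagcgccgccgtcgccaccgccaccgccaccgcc
The windows were chr14:103522781-103523080 for CKB (minus strand), chr1:25906370-25906669 for STMN1 (minus strand, 1 of 3 starts listed), chr4:41256678-41256977 for UCHL1, chr10:103276888-103277187 for INA and chr12:6914330-6914629 for ENO2 (all plus strand).

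Of the 6 member windows, 5 held a GC box: 5 copies in CKB, 4 in INA, 3 in STMN1, 2 in ENO2, 1 in UCHL1 and 0 in GAP43, whose window is not printed. Of 34796 RefSeq promoters of the same length, 44.9% held one. CKB alone among the 6 had a TATA box on its own strand, with its first base at -69 from the start, between CCAAT boxes at -87 and -57. The letters of a TATA box lay on the opposite strand of the UCHL1 window at -29, STMN1 had a CCAAT box at -75, and GAP43 had one on the opposite strand at -137. TATA and CCAAT boxes occurred in 11.6% and 34.6% of all promoters. The partial RE1 letters were found in CKB at -165 and in GAP43 at -97, and occurred in 6.02% of all promoters. These matches describe letters and not bound sites.

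In the empty vector cells the 10 genes covered the range from among the most abundant transcripts of the cell to none detected. CKB (ENSG00000166165, chromosome 14, 103519659 to 103523111 in GENCODE 29) was at 2915, 2871 and 4609 RPKM, above 99.6% of the genes detected in that group. STMN1 (ENSG00000117632, chromosome 1, 25884181 to 25906991) was at 322, 310.3 and 380.1 RPKM, above 97.1% of them. UCHL1 (ENSG00000154277, chromosome 4, 41256413 to 41268455) was at 244, 247 and 263 RPKM, above 96.2% of them. These enzymes and the stathmin thus headed the list, with no overlap between neighbours. NEFM (ENSG00000104722, chromosome 8, 24913012 to 24919098) followed at 108, 67.8 and 51.9 RPKM. INA (ENSG00000148798, chromosome 10, 103277163 to 103290351) was at 12.3, 13.0 and 10.2 RPKM, from an estimated 288, 330 and 325 reads. ENO2 (ENSG00000111674, chromosome 12, 6913745 to 6923698) was at 15.2, 7.11 and 5.41 RPKM and overlapped INA, so that these neighbours could not be ordered.

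GAP43, STMN2, NEFL and NEFH had the lowest levels. GAP43 (ENSG00000172020, chromosome 3, 115623324 to 115721490) was at 1.23, 1.70 and 3.54 RPKM, from an estimated 13.9 to 62.5 reads. STMN2 (ENSG00000104435, chromosome 8, 79610814 to 79666175) was at 0, 0.77 and 1.22 RPKM. NEFL (ENSG00000277586, chromosome 8, 24950955 to 24957110) was at 0, 0.13 and 1.12 RPKM, and its values overlapped those of STMN2. NEFH (ENSG00000100285, chromosome 22, 29480230 to 29491390) was listed at 0 in all 3 libraries. Of the 3 neurofilament chains, then, the medium chain alone was well detected: its lowest library, at 51.9 RPKM, was above the highest NEFL library, at 1.12 RPKM. RPKM divides by gene length, although a read from the 3′ end is counted once per transcript whatever its length, so levels of long and short genes are set side by side with that reservation.

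**Figure D2:**
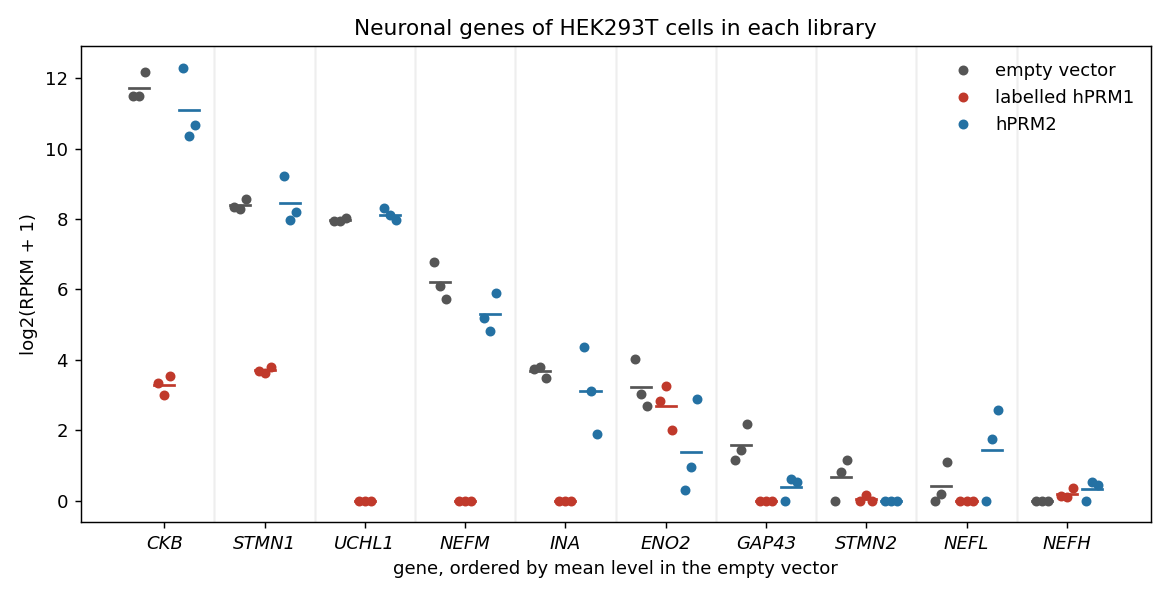
Level of each of the 10 neuronal genes as log2(RPKM + 1), with 1 point per library and a line at the mean of each group (n = 3). CKB, STMN1, UCHL1, NEFM and INA lie far lower in the libraries labelled hPRM1 than in either other group, while the ENO2 points of those libraries overlap the empty vector.

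The libraries labelled hPRM1 held less of 6 of the 7 members that could be tested. CKB and UCHL1 had the largest differences, followed by NEFM, STMN1 and INA. GAP43 was called with a difference near the median of all genes, while ENO2 did not pass the test. Each comparison was fitted with limma on log2(RPKM + 1) over genes with at least 1 RPKM in at least 3 of the 6 libraries, and a call needed a Benjamini-Hochberg adjusted p of at most 0.05 and a change of at least 2-fold. The share of called members, 85.7% and all lower, stands beside a background of 75.4% called among 13588 genes tested, 62.5% lower and 12.9% higher, and the median difference over all those genes was -1.72. Of the 6 called members, the per-gene test of the study's methods, run on RPKM, called 3 (INA, STMN1 and UCHL1) and not CKB, NEFM or GAP43. Over all 13588 genes that test called 3727 lower and 792 higher. Groups did not overlap for the same 6 members, beside 80.8% of all tested genes. UCHL1, NEFM, INA and GAP43 were at 0 in all libraries labelled hPRM1. They passed the filter through the empty vector alone, so a call could only be lower. NEFL, NEFH and STMN2 stayed below the filter in this comparison.

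CKB was at 9.13, 6.97 and 10.7 RPKM in the libraries labelled hPRM1, so that its mean was 388-fold below that of the empty vector and the groups were far apart. On the log2(RPKM + 1) scale the difference was -8.43 (SE 0.25, adjusted p = 2.46e-06), and only 0.162% of the tested genes had a lower one. UCHL1 was listed at 0 in all 3 libraries, at least 81.1-fold below the empty vector if 0 is read as up to 3 reads per library on its shortest annotated transcript. Its difference was -7.98 (SE 0.17, adjusted p = 1.68e-06), with 0.221% of genes lower. These bounds and limits cover counting error only.

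Among the filament genes, NEFM was also at 0 in all 3 libraries, at least 41.8-fold lower, with a difference of -6.20 (SE 0.30, adjusted p = 7.00e-06). INA was at 0 in all 3 as well, at least 58.4-fold lower, with a difference of -3.67 (SE 0.21, adjusted p = 1.15e-05). NEFL was listed at 0 too, and NEFH was at 0.10, 0.07 and 0.27 RPKM, which comes to about 2, 1 and 5 reads. No chain of the neurofilament was thus listed above 0.27 RPKM in these libraries, although a listed 0 of NEFM allows up to 1.82 RPKM on its shortest annotated transcript.

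STMN1 stayed measurable at 11.8, 11.4 and 13.0 RPKM, which was 28.0-fold below the empty vector (difference -4.69, SE 0.17, adjusted p = 3.53e-06). STMN2, the stathmin of growing axons, was at 0.12 RPKM in 1 library and at 0 in the others. GAP43 was at 0 in all 3 libraries, at least 5.15-fold lower, with a difference of -1.59 (SE 0.28, adjusted p = 0.00173). For GAP43 the difference was close to the median of all genes: 53.1% of tested genes had a lower one.

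ENO2 was at 6.16, 8.58 and 2.99 RPKM, of which 2 values lay inside the range of the empty vector libraries and 1 lay below it (difference -0.54, SE 0.46, 95% interval -1.65 to 0.57, adjusted p = 0.316). Its place therefore depended on the scaling. When libraries were rescaled by the median of ratios, which brought the median over all genes to -0.12, ENO2 was called higher (difference 1.33, adjusted p = 0.0292), and with quantile normalization it was 1.05 higher without a call (adjusted p = 0.0673). CKB, NEFM, INA, STMN1 and UCHL1 were called lower under the median of ratios too, with differences of -6.32, -5.09, -2.66, -2.57 and -6.84, whereas GAP43, at -0.95, was not. Over all 13588 genes, 3925 were called lower and 3919 higher on that scale. In the libraries labelled hPRM1 the order of levels was STMN1, then CKB and ENO2, which overlapped, and these 3 were the only members listed above 1 RPKM. The ratio of CKB to STMN1 moved with this, from 9.06, 9.25 and 12.1 with the empty vector to 0.77, 0.61 and 0.83. The blood cell genes given above were higher and the HEK293T genes lower in the same 3 libraries, and their part in these differences was not tested.

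**Figure D3:**
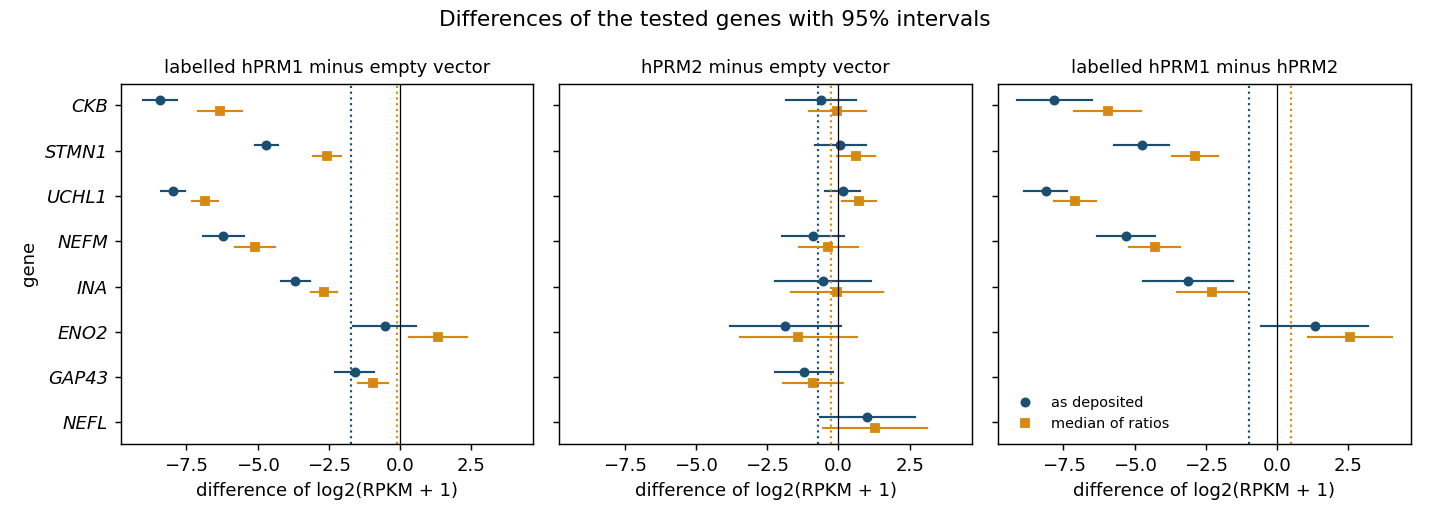
Difference of log2(RPKM + 1) between groups for each tested neuronal gene with its 95% interval, on the deposited scale and after rescaling by the median of ratios; dotted lines mark the median over all tested genes on each scale. CKB, UCHL1, NEFM and STMN1 lie below the median line in both comparisons of the libraries labelled hPRM1, and ENO2 lies above it.

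With hPRM2 none of the 8 tested members was called. STMN1 and UCHL1 kept means near those of the empty vector, CKB, NEFM and INA had lower means with wide spread, and ENO2 and GAP43 had the lowest values relative to the empty vector. Over all 13126 genes tested, 2.74% were called, 1.37% lower and 1.36% higher, and the median difference was -0.72. In the same limma fit, GAP43 was the 1 member of 8 with an unadjusted p under 0.05, beside 3351 of all 13126 genes, so it does not stand out. The per-gene test of the study's methods, run on RPKM, called 0 members, beside 9 lower and 0 higher of all 13126 genes.

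UCHL1 was at 315.4, 276 and 249.7 RPKM with hPRM2 and had the smallest SE of the 8 members (difference 0.15, SE 0.26, 95% interval -0.46 to 0.76, adjusted p = 0.722). An antisense gene, UCHL1-AS1, was listed at 73.1 RPKM in hPRM2 replicate 1, at 4.59 RPKM in replicate 2 and at 0 in the other 7 libraries. STMN1 was at 595, 250.2 and 292 RPKM, with replicate 1 above and the other libraries below every empty vector library (difference 0.07, SE 0.38, adjusted p = 0.923). Its sign turned without replicate 1, to -0.31. CKB was at 5061, 1311 and 1637 RPKM. Replicate 1 was above all empty vector libraries and the other libraries were below them (difference -0.61, SE 0.52, 95% interval -1.83 to 0.61, adjusted p = 0.466). Without replicate 1, CKB was called lower, by -1.21 (adjusted p = 0.0342), as 1 of 8 tested members. In that setting 1619 of all 13126 tested genes were called lower and 810 higher. The ratio of CKB to STMN1, which is free of the scaling of a library, was 8.51, 5.24 and 5.61 with hPRM2, below the lowest empty vector ratio of 9.06 in every library. The ratio of CKB to UCHL1, at 16.0, 4.75 and 6.55, overlapped that of the empty vector (11.6 to 17.6). STMN1 to UCHL1, at 1.89, 0.91 and 1.17, lay on both sides of it (1.26 to 1.45). How often ratios of other genes separate these groups was not tested.

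NEFM was at 35.7, 27.0 and 58.4 RPKM with hPRM2, and the highest of these lay within the empty vector range (difference -0.90, SE 0.46, adjusted p = 0.259). INA spread widely, at 19.6, 7.64 and 2.71 RPKM from about 155, 28.9 and 12.9 reads (difference -0.55, SE 0.72, 95% interval -2.24 to 1.14, adjusted p = 0.635). The ratio of NEFM to INA accordingly ran from 1.82 to 21.5 between the hPRM2 libraries, against 5.09 to 8.83 with the empty vector. NEFL was at 0, 2.34 and 5.01 RPKM, so that replicates 2 and 3 were above every empty vector library and replicate 1 was at 0 (difference 1.02, SE 0.71, adjusted p = 0.383). An antisense gene of NEFL, AC107373.2, reached 28.97 RPKM with the empty vector. NEFH was at 0, 0.44 and 0.35 RPKM, about 2 reads in each library above 0.

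ENO2 was at 0.23, 0.95 and 6.36 RPKM with hPRM2, where replicate 3 lay inside the empty vector range (difference -1.86, SE 0.83, 95% interval -3.82 to 0.10, adjusted p = 0.214). Even on its longest annotated transcript these values come to at most 1.55, 3.10 and 26.1 reads. The gene LRRC23 overlaps ENO2 on the same strand and was listed at 9.84 and 3.83 RPKM in hPRM2 replicates 2 and 3. Whether counting used the strand is not given in the sources used here, so reads of a member and an overlapping gene may have been exchanged. GAP43 was at 0, 0.55 and 0.43 RPKM, about 1 read in each of the libraries above 0, and was the only member whose hPRM2 and empty vector values did not overlap (difference -1.21, SE 0.43, adjusted p = 0.151). In comparison, 35.9% of all tested genes did not overlap between these groups. A fit that shared the spread of all 9 libraries called GAP43 lower (adjusted p = 0.0445), together with 1618 lower and 507 higher calls among all 13126 tested genes. STMN2 was at 0 in all 3 hPRM2 libraries.

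Set directly against hPRM2, the libraries labelled hPRM1 were lower for 5 of the 6 members tested, beside a background of 53.0% called, 37.0% lower and 16.0% higher. UCHL1, NEFM and INA, at 0 in all libraries labelled hPRM1, passed the filter through hPRM2 alone, so a call could only be lower. The per-gene test of the study's methods called 0 of the 6 members, where it called only 103 lower and 116 higher of all 11756 genes tested. The same 5 members did not overlap between these groups, beside 62.0% of all tested genes. UCHL1 differed by -8.13 (SE 0.31, adjusted p = 3.98e-05) and CKB by -7.82 (SE 0.55, adjusted p = 0.000185). NEFM differed by -5.30 (SE 0.42, adjusted p = 0.000235), STMN1 by -4.76 (SE 0.39, adjusted p = 0.000280) and INA by -3.12 (SE 0.65, adjusted p = 0.00795). ENO2 had a mean 2.35-fold higher in the libraries labelled hPRM1, with overlapping values (difference 1.32, SE 0.77, 95% interval -0.55 to 3.19, adjusted p = 0.201). It was called higher under the median of ratios (2.56, adjusted p = 0.0140), under quantile normalization (1.99, adjusted p = 0.0248) and without hPRM2 replicate 3 (2.07, adjusted p = 0.0288). In these settings 3662, 3123 and 2076 of all 11756 genes were called higher. GAP43, NEFL, NEFH and STMN2 did not pass the filter here.

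Relatives of the members and other neuronal genes give the surroundings of these values. Among 14 relatives of the members, 11 were tested against the empty vector in the libraries labelled hPRM1, of which 7 were lower and 1 was higher, with a median difference of -2.89. These shares, 63.6% lower and 9.09% higher, are close to those of all tested genes (62.5% and 12.9%). The ubiquitin hydrolases UCHL3 and UCHL5 fell beside UCHL1 (differences -5.64 and -4.78). ENO1, the enolase found in most tissues, fell (difference -2.89) from 1006 ± 49.8 to 135.8 ± 25.6 RPKM, where ENO2 was not called. The mitochondrial creatine kinases CKMT1A and CKMT1B fell (differences -4.93 and -4.04). Both were at 0 in all 3 libraries, so a call could only be lower. CKMT1A and CKMT1B are near-identical copies, so the split of reads between them is uncertain. STMN3 was at 5.88 ± 0.64 RPKM in the libraries labelled hPRM1 and 7.14 ± 0.88 RPKM with the empty vector (difference -0.24, adjusted p = 0.304), unlike the fall of STMN1. Of the relatives of GAP43, MARCKSL1 fell by 3.36, whereas MARCKS differed by -0.43 (adjusted p = 0.228), and BASP1 was the 1 relative that rose, by 3.72 (adjusted p = 1.07e-05), from 20.1 ± 2.77 to 278 ± 47.4 RPKM. With hPRM2 none of the 11 tested relatives was called. Under the median of ratios the count in the libraries labelled hPRM1 was 5 lower and 3 higher, beside 3925 and 3919 of all 13588 genes. STMN3 (1.63) and MARCKS (1.65) were then called higher and ENO1 (-0.71) was not called. Quantile normalization gave 6 lower and 3 higher, beside 4787 and 3439 of all genes, with STMN3 at 1.37 and MARCKS at 1.24.

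Of 9 other intermediate filament genes, 4 were tested in the libraries labelled hPRM1 and 3 were lower (75.0%, beside 62.5% of all tested genes): KRT18 (-4.60), KRT8 (-3.96) and VIM (-1.78). VIM turned to 0.40 under the median of ratios and to 0.11 under quantile normalization, and was not called in either. With hPRM2 KRT8 alone among 5 tested was called, higher by 3.01 (adjusted p = 0.0224), from 21.4 ± 5.84 to 179 ± 49.7 RPKM. Over all genes tested with hPRM2, 1.36% were called higher. The filament partners of the neurofilaments, PRPH and NES, were at 1.08 ± 0.51 and 1.58 ± 0.59 RPKM with the empty vector.

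Of 34 other neuronal genes, 20 were tested in the libraries labelled hPRM1, of which 17 were lower (85.0%, beside 62.5% of all tested genes) and 1 was higher, with a median difference of -2.62. Several of the lower genes, TUBB2B and KIF1A among them, were at 0 in all of these libraries, so a call could only be lower. TUBB2B, a tubulin of developing neurons, had the largest fall (difference -7.25), from 151 ± 2.76 RPKM to 0. The kinesin KIF1A (-4.48), TUBB3, the tubulin used to mark neurons (-4.15), and the microtubule-binding MAP1B (-3.93) fell too. KIF5C, at 47.8 ± 44.3 RPKM with the empty vector, differed by -2.52 without a call (adjusted p = 0.0870). VAMP2, a vesicle protein named after its value was seen, rose by 1.53 (adjusted p = 0.00165). Both other scalings gave 15 lower and 1 higher of the 20. Over all 13588 genes, 3925 were lower and 3919 higher under the median of ratios, and 4787 and 3439 under quantile normalization. With hPRM2 the synaptic vesicle gene SYP rose by 3.29 (adjusted p = 0.0172), from 14.2 ± 4.86 to 144 ± 26.2 RPKM, and SNAP25, of the vesicle fusion complex, fell by 2.36 (adjusted p = 0.0398) to 0. SNAP25 passed the filter through the empty vector alone, so a call could only be lower. It was not called under quantile normalization (adjusted p = 0.0511). The other 19 of 21 tested genes were not called, where 2.74% of all genes tested with hPRM2 were called.

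Regulators of neuronal genes were lower as well: 7 of 8 tested (87.5%) in the libraries labelled hPRM1, where 62.5% of all tested genes were lower, and 0 of 8 with hPRM2, where 1.37% were. Under the median of ratios 6 were lower and 1 was higher, beside 3925 lower and 3919 higher of all 13588 genes. Under quantile normalization 6 were lower and 0 higher, beside 4787 and 3439. The transcription factors ZIC2 (-5.21), SOX4 (-3.80), ISL1 (-3.57) and SOX2 (-2.97) fell in the libraries labelled hPRM1. ZIC2, ISL1 and SOX2 were at 0 in all of these libraries, so a call could only be lower. REST was at 10.9 ± 1.51 RPKM with the empty vector, at 4.51 ± 0.70 RPKM in the libraries labelled hPRM1 (difference -1.11, adjusted p = 0.00273) and at 13.5 ± 7.69 RPKM with hPRM2 (difference 0.18, adjusted p = 0.852). Relative to the all-gene median REST was not low in the libraries labelled hPRM1: it turned to 0.80 under the median of ratios and to 0.52 under quantile normalization, without a call. Genes of glia, the other cells of nervous tissue, were few: 4 of 10 were tested in the libraries labelled hPRM1, where SLC1A3 (-2.50), OLIG2 (-2.14) and CNP (-2.08) fell and MBP rose by 5.15 to 80.0 ± 5.68 RPKM. SLC1A3 was at 0 in all libraries labelled hPRM1, so a call could only be lower. Under both other scalings OLIG2 and CNP were not called. None of 4 was called with hPRM2.

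**Figure D4:**
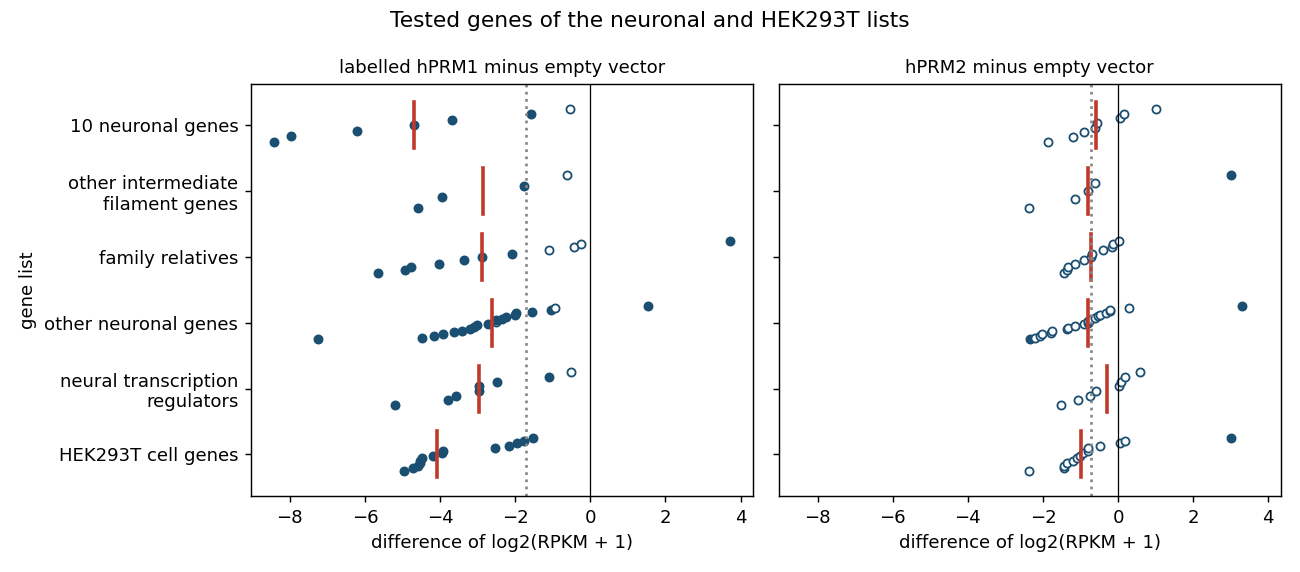
Difference of log2(RPKM + 1) of every tested gene in 6 lists, for the libraries labelled hPRM1 (left) and hPRM2 (right) against the empty vector; filled points are called, red bars are list medians and the dotted line is the median over all tested genes. Nearly all neuronal points are below 0 on the left, with BASP1 and VAMP2 called above it, and on the right only KRT8, SYP and SNAP25 are filled.

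In the hPRM2 libraries, most of the blood cell genes were listed at 0 and a few were not. Of the 12 lymphocyte genes, 9 were at 0 in each library. Lymphocyte genes summed to 220.2 to 642 RPKM against 33.2 to 54.5 RPKM with the empty vector, where CCL5 (3.03 higher, adjusted p = 0.0424) and LCK (4.39 higher, adjusted p = 0.0334) were called and CD3D, CD3E and CD2 were at 0. CCL5 was not called under the median of ratios (adjusted p = 0.0507). Neutrophil and monocyte genes summed to 5.34 to 20.8 RPKM against 0.284 to 3.02 RPKM, and the part of these genes in the values of the members was not tested.

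Across the 9 libraries, the genes whose log2(RPKM + 1) was most like that of a member were H2AZ1 for CKB (r = 0.999), LAMB1 for NEFM (r = 0.999), SNRPB2 for INA (r = 0.998), PRDX6 for STMN1 (r = 0.9995), EIF3I for UCHL1 (r = 0.9997), GJA3 for GAP43 (r = 0.991), UBE2H-DT for NEFL (r = 0.987) and CPT1B for ENO2 (r = 0.977). These values are a description over 9 libraries that fall into 3 groups and share their depth and scaling. For CKB, 12.5% of 12969 genes had r of at least 0.95, and for STMN1, NEFM and UCHL1 the shares were 11.3%, 11.2% and 10.7%. For INA the share was 5.97%, for GAP43 0.378%, and for NEFL 0.1002%. ENO2 had the smallest share, 0.0231%, and CPT1B, its closest gene, was at 0, 0.98 and 6.52 RPKM in the hPRM2 libraries.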

How the data were processed

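Transcripts of HEK293T cells were quantified in 9 libraries (3 per group). The authors trimmed and quantified the reads with nf-core/rnaseq (FastQC, Cutadapt, STAR and Salmon, versions not given in the sources used here), on hg38 according to the submitters' processing notes, and removed mitochondrial genes. They deposited RPKM values, each a read count scaled to the library total and to gene length in kilobases, for 57338 genes and with no counts. The annotation used is not given in the sources used here. Symbols were found for 98.6% of the identifiers, and coordinates of members are from GENCODE 29.

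Groups were tested with the R package limma 3.58.1 (R 4.3.3; lmFit, then eBayes with trend and robust) on log2(RPKM + 1), which understates changes of low genes, keeping genes that reached 1 RPKM in 3 or more of the 6 libraries compared. A call needed an adjusted p-value (Benjamini-Hochberg over all genes tested) of at most 0.05 and a 2-fold change. The fit was tested on simulated data. Groups came from the labels, each comparison had its own fit, and replicate numbers were not used as a block. Reads were estimated from the spacing of low RPKM values of genes with 1 transcript of 600 to 20000 bases, with 250 bases subtracted from each length. Listed zeros were taken to allow up to 3 reads per library. Other settings tried were a pseudocount of 0.1 or 5, a minimum of 10 RPKM or none, scaling by median of ratios or quantiles, 1 model for all 9 libraries, the replicate number as a block, the per-gene Welch test and leaving out each replicate. Levels and figures were made with Python 3.11.15, pandas 2.3.3, numpy 2.4.6 and matplotlib 3.10.9.

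The members and gene lists were chosen with earlier results of these data known. Named are all 10 members; in each other list and comparison with the empty vector, called genes up to the 4 largest differences and genes of at least 10 RPKM with the empty vector up to the 4 highest; relatives beside their member; and for each tested member the gene most correlated with it over 9 libraries, leaving out sex-linked, HLA and immune receptor genes. Some named genes with values outside these rules are given for context.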

Additional observations from a re-analysis of the deposited data

How the results depend on the processing

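For the libraries labelled hPRM1 against the empty vector, 96 of the values of single members over all alternatives kept their direction and side of the threshold, 5 lost the call and 2 turned, both of them ENO2 (1.33 with the median of ratios and 1.05 with quantile normalization). The 6 members called lower became 3 with the per-gene Welch test (without CKB, NEFM and GAP43), and the 0 called higher became 1 (ENO2) with the median of ratios. Leaving out each replicate gave 6 to 6. For hPRM2 against the empty vector, 0 members called became 1 in the fit of all 9 libraries (GAP43) and 1 without hPRM2 replicate 1 (CKB), for a range of 0 to 1. INA ranged from -1.17 to 0.064 when a replicate was left out, turning without hPRM2 replicate 3, and STMN1 from -0.31 to 0.31, turning without hPRM2 replicate 1. STMN1 was also at -0.071 with quantile normalization. For the libraries labelled hPRM1 against hPRM2, 5 members called lower became 0 with the Welch test, while the 0 called higher became 1 (ENO2) with the median of ratios, with quantile normalization and without hPRM2 replicate 3, for a range of 0 to 1. The causes were not tested.

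With the replicate block the members called stayed at 6, 0 and 5 in the 3 comparisons, and over all genes with hPRM2 the calls went from 180 lower and 179 higher to 8 and 49. Deviations of libraries with the same number had r of -0.078 to 0.080 for hPRM2 and the empty vector. For the libraries labelled hPRM1 these values were -0.024 to 0.028 with the empty vector and 0.0036 to 0.071 with hPRM2. Values this small do not show a pairing, and they cannot show that libraries with the same number were prepared apart. Calls over all genes with hPRM2 ranged from 2 to 1619 lower and 10 to 810 higher when a replicate was left out. The highest of both came without hPRM2 replicate 1. These calls were 17 and 72 without a filter, 1618 and 507 in the fit of all 9 libraries and 9 and 0 with the Welch test. With a pseudocount of 5, a minimum of 10 RPKM, the median of ratios and quantile normalization, 101, 44, 82 and 86 were lower. In the libraries labelled hPRM1 against the empty vector, 8491 lower and 1750 higher became 3925 and 3919 with the median of ratios, 4787 and 3439 with quantile normalization, 4970 and 867 with a minimum of 10 RPKM, 3727 and 792 with the Welch test, and 1152 were higher with a pseudocount of 5. Against hPRM2, 4355 and 1879 became 2148 and 3662, 2587 and 3123, 2828 and 922, and 103 and 116 under the first 4 of these in the same order. Depth limits the hPRM2 values of GAP43, NEFH, NEFL, STMN2, ENO2 and INA, which rest on few reads.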
